A study of Mus musculus with 3 samples.

Results

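Foxn1, the transcription factor that switches on the program of thymic epithelial cells (TECs), and 7 genes known as its targets in the cortical type of these cells were followed in 3 droplet libraries of embryonic thymic lobes. The genes were Foxn1, Psmb11, Prss16, Ccl25, Tbata, Ppp1r27, Cd83 and Slc46a2, 8 of the 27998 genes counted. They were chosen by name with earlier results of these data known, and their counts were read in cells with and without UMIs of the epithelial surface gene Epcam. A UMI (unique molecular identifier) marks 1 captured RNA molecule.

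Each of the 3 libraries came from C57BL/6 thymic lobes at E13 to E13.5, and there was 1 library per genotype. The control library was labelled wild type. In the Tbx1neo2/neo2 library both Tbx1 alleles were labelled neo2, and no change of Foxn1 was labelled. The neo2 allele carries a neomycin cassette in an intron, which lowers Tbx1 without deleting it. In the Foxn11089/1089 library both Foxn1 alleles were labelled 1089, an allele with a small knocked-in deletion in the coding sequence. The changes were present in every cell of the embryo, and the number of embryos per library was not given in the sources used here.

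Foxn1 is a forkhead factor that becomes active in the third pharyngeal pouch as the thymus forms. Without it the epithelium of the thymus starts to form but does not mature, and progenitors of T cells do not settle and develop there. Its known targets in cortical TECs call in those progenitors, provide their signals and make the peptides and MHC molecules on which thymocytes are selected.

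The control, Tbx1neo2/neo2 and Foxn11089/1089 libraries held 6410, 5759 and 12447 barcodes and 82936619, 137498422 and 204655055 UMIs. Barcodes needed 200 genes or more and a mitochondrial share below 20% to be kept. Kept cells with at least 2 Epcam UMIs (2116, 957 and 4267 cells) were taken as Epcam-positive and those with 0 (3391, 4205 and 6610 cells) as Epcam-negative. Their median depths were 16889.5, 48614 and 21184 UMIs against 10096, 16693 and 11817. The gate followed its label: the 8 other epithelial genes examined summed to 3994, 3736 and 1967 UMIs per 1e+06 UMIs (CPM) in Epcam-positive cells against 266, 102 and 58.8 CPM in Epcam-negative cells. Genes of blood cells (Ptprc, Coro1a, Lck, Cd3g and Cd3d) summed to 183, 332 and 35.0 CPM within the gate, those of mesenchyme to 34.4, 106 and 113 CPM, those of endothelium to 3.48, 12.96 and 15.6 CPM and those of red blood cells to 744, 365 and 5327 CPM, and their part in the results was not tested. Between 17 and 28 barcodes were shared by any 2 libraries. Tbx1 had 1.39, 4.81 and 5.43 CPM over all kept cells, from 114, 656 and 1102 UMIs, and was not lower in the second library. In Epcam-positive cells Tbx1 had 0.816, 4.73 and 7.35 CPM, from 30, 247 and 786 UMIs, again not lower in the second library. These sums mix cell types, so they cannot check the genotype in either direction. The second library is called the library labelled Tbx1neo2/neo2, since its genotype rests on the label. UMIs of Foxn1 check nothing in the Foxn11089/1089 library, since counts per gene do not show whether a molecule carries the small deletion. With 1 library per genotype no difference could be tested. The 95% intervals in brackets are exact (Clopper-Pearson for shares, Poisson for levels, conditional binomial for ratios) and cover counting error only. They treat the UMIs or cells of 1 library as independent, so whether intervals overlap does not measure the spread between embryos or genotypes. Fewer cells of a type and less RNA per cell cannot be told apart in a summed level.

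Foxn1 RNA was not lower in the Foxn11089/1089 library. Foxn1 (ENSMUSG00000002057; GRCm38 chromosome 11, 78357577 to 78386558, minus strand) stood at 78.8 CPM (76.0 to 81.8) in control Epcam-positive cells. It stood at 88.6 CPM (86.0 to 91.1) in the library labelled Tbx1neo2/neo2 and at 142 CPM (140 to 145) in the Foxn11089/1089 library. The Foxn11089/1089 level was the highest of the 3, at 1.80 times the control (1.73 to 1.88, by counting error within 1 library each). Every cell was also thinned at random to 5000 UMIs, so that shares of cells could be set side by side at 1 depth, which left out 54, 27 and 217 shallower Epcam-positive cells. Foxn1 was then found in 30.8%, 31.4% and 43.8% of Epcam-positive cells, or 61.5%, 63.2% and 70.8% before thinning. In Epcam-negative cells it was found in 1.03%, 0.45% and 0.83%. The control library and the library labelled Tbx1neo2/neo2 had overlapping intervals for this share (28.9% to 32.9% and 28.4% to 34.5%). That of the Foxn11089/1089 library was higher (42.3% to 45.4%), by counting error alone.

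The targets that make and cut peptides were among the lowest of all genes in the Foxn11089/1089 library. Psmb11 encodes the catalytic subunit of the thymoproteasome, the form of the proteasome particular to cortical TECs, and Prss16 encodes the thymus-specific serine protease, which takes part in making MHC class II peptides. Psmb11 (ENSMUSG00000072423; chromosome 14, 54621433 to 54629556, plus strand) had 212, 95.2 and 10.2 CPM in Epcam-positive cells of the control, the library labelled Tbx1neo2/neo2 and the Foxn11089/1089 library. Prss16 (ENSMUSG00000006179; chromosome 13, 22002173 to 22009742, minus strand) had 271, 323 and 4.79 CPM in the same order. Psmb11 was thus 20.7-fold lower (19.4 to 22.1) and Prss16 56.6-fold lower in the Foxn11089/1089 library than in the control, ranks 58 and 22 from the lowest of 15438 genes with at least 30 UMIs over the 2 libraries. The genes parted in the library labelled Tbx1neo2/neo2, where the level of Psmb11 was 0.449 times the control and that of Prss16 1.19 times.

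Psmb11 was found in 47.2%, 31.2% and 5.23% of thinned Epcam-positive cells, and Prss16 in 57.5%, 53.2% and 2.07%. Both remained above their levels in Epcam-negative cells in the Foxn11089/1089 library, where Psmb11 had 0.278 CPM and Prss16 0.496 CPM. In the Ptprc-positive blood cells among these Prss16 had 2.52 CPM (1.49 to 3.98), nearer to its 4.79 CPM in Epcam-positive cells. A Foxn11089/1089 cell held at most 17 UMIs of Psmb11 and at most 4 of Prss16, against 30 and 44 in a control cell, and 61 and 145 in the deeper library labelled Tbx1neo2/neo2.

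Sequence upstream of the start was given for 6 of the 8 genes, in 7 windows of 250 bases from RefSeq on GRCm38.p6; Prss16 and Cd83 had no entry. The letters GACGC, the core of the site known for FOXN1, were searched on both strands (GCGTC on the other strand), with no other motif. They occurred in 22.6% of all 32851 windows of this length. Among the windows of these genes they occurred in those of Psmb11, Ccl25 and Ppp1r27, and not in those of Foxn1, Tbata, Slc46a2 or a second start of Ccl25. The match is in letters only. In the Psmb11 window the letters began 239 and 62 bases before the start, in an exon of a longer Psmb11 transcript of GENCODE, and in the Ccl25 window 56 bases before the start, in an exon of Elavl1 on the other strand. The stretches of 30 bases around these matches are printed for comparison, with the motif in capitals.
Psmb11, chr14:54625060-54625089, plus strand: gctgacaggtgGCGTCttcagagtgtagga
Psmb11, chr14:54625236-54625265, plus strand: agcttctccacaGCGTCctcctcctcctcc
Ccl25, chr8:4325142-4325171, plus strand: ctttgaagaagcGACGCtcattggttggca

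Ccl25, the chemokine that draws T cell progenitors carrying its receptor Ccr9 into the thymus, was lower in the Foxn11089/1089 library by less than the peptide-making genes. Ccl25 (ENSMUSG00000023235; chromosome 8, 4325210 to 4360020, plus strand) had 557 CPM (550 to 565) in control Epcam-positive cells, 443 CPM (437 to 449) in the library labelled Tbx1neo2/neo2 and 85.1 CPM (83.4 to 86.9) in the Foxn11089/1089 library. The control stood highest and the Foxn11089/1089 library lowest, 6.55-fold below the control, but the log2 ratio of the library labelled Tbx1neo2/neo2 turned from -0.33 to 0.06 with at least 5 Epcam UMIs and to 0.21 with at least 2 Cdh1 UMIs in place of Epcam. Its share of thinned Epcam-positive cells was 56.0%, 47.3% and 18.6%. The 5′ end of Ccl25 overlaps that of Elavl1 on the opposite strand, and the setting for strand in the counting was not given in the sources used here.

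Tbata and Ppp1r27 had the largest and the third largest fold of the 8 in the Foxn11089/1089 library. Tbata (thymus, brain and testes associated), which has been linked to how far TECs divide, had 61.0, 47.4 and 0.907 CPM in Epcam-positive cells (ENSMUSG00000020096; chromosome 10, 61171954 to 61188841, plus strand). Ppp1r27, a regulatory subunit of protein phosphatase 1, had 78.9, 41.8 and 2.74 CPM (ENSMUSG00000025129; chromosome 11, 120549979 to 120551132, minus strand). Against the control, Tbata was 67.2-fold lower in the Foxn11089/1089 library and Ppp1r27 28.8-fold lower. Tbata was at 0.778 times and Ppp1r27 at 0.530 times the control in the library labelled Tbx1neo2/neo2. With at least 5 Epcam UMIs the log2 ratio of Tbata there turned from -0.36 to 0.44, and that of Ppp1r27 ranged from -1.34 to -0.16 over the alternatives.

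UMIs of Tbata and Ppp1r27 were more concentrated in single cells than those of the 6 other genes in the control. The highest 1% of control Epcam-positive cells held 37.2% of the Tbata UMIs and 30.7% of the Ppp1r27 UMIs, against 4.68% to 9.72% for the 6 other genes. Single control cells reached 107 UMIs of Tbata and 108 of Ppp1r27. All 97 Tbata UMIs of the Foxn11089/1089 library lay in 44 of its 4267 cells, and 1 of these cells held 27. The windows upstream of these genes are printed because both genes were concentrated in this way, and of the pair only Ppp1r27 holds the motif (in capitals, beginning 77 bases before the start). The last 10 bases of the Tbata window, which lie in an exon of Tbata in GENCODE, are left out.
Tbata, chr10:61171714-61171953, plus strand: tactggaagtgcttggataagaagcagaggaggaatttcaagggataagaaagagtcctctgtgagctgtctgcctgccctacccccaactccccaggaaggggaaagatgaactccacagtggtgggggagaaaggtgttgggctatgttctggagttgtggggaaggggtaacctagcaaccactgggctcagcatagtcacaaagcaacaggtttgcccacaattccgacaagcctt
Ppp1r27, chr11:120551133-120551382, minus strand: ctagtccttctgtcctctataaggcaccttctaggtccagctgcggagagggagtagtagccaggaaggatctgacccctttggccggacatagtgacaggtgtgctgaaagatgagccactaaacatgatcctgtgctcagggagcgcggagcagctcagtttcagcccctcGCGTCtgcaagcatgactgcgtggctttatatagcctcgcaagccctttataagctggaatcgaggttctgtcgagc

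Of the 7 targets, the surface protein genes Cd83 and Slc46a2 had the smallest folds in the Foxn11089/1089 library. Cd83, which keeps MHC class II molecules on the surface of TECs and dendritic cells, had 28.5, 31.2 and 10.9 CPM in Epcam-positive cells (ENSMUSG00000015396; chromosome 13, 43784775 to 43803132, plus strand). Slc46a2, a transporter of thymic stroma, had 119, 110 and 78.3 CPM (ENSMUSG00000028386; chromosome 4, 59905126 to 59915056, minus strand). Cd83 was 2.61-fold lower and Slc46a2 1.52-fold lower in the Foxn11089/1089 library than in the control. In that library Slc46a2 was still found in 29.5% of thinned Epcam-positive cells, against 42.0% (control) and 37.0% (labelled Tbx1neo2/neo2). Its upstream window is printed for comparison. It holds no match to the motif, like that of Tbata, which had the largest fold.
Slc46a2, chr4:59915057-59915306, minus strand: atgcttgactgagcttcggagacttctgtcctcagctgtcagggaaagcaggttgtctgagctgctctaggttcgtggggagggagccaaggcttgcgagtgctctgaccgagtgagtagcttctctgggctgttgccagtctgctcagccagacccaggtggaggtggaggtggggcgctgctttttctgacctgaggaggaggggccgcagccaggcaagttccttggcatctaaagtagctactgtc

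**Figure D1:**
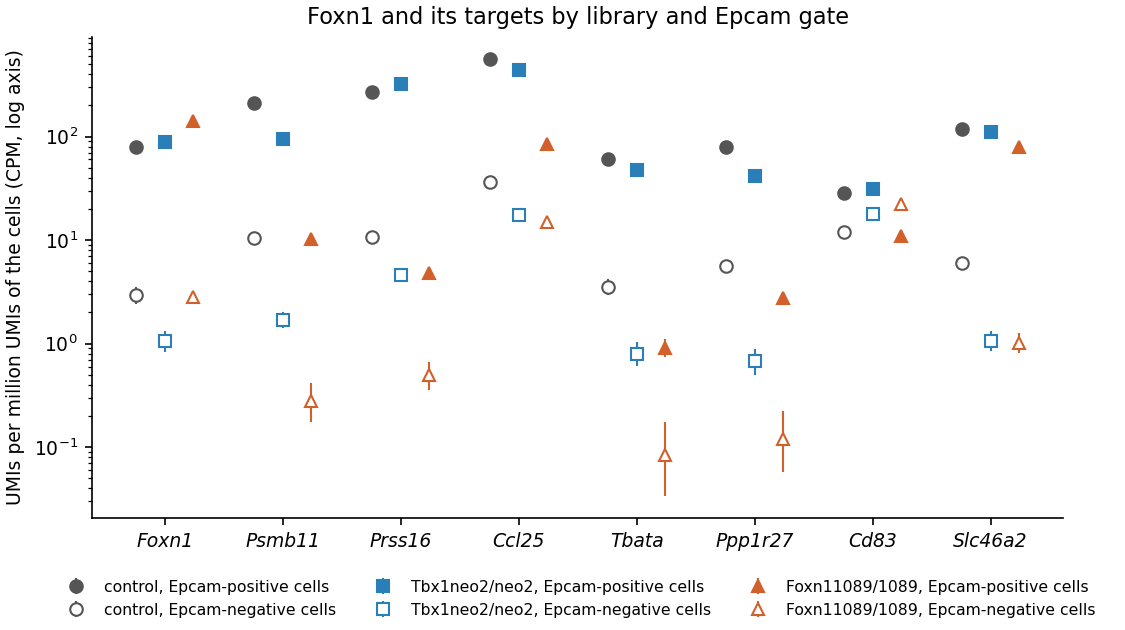
Level of each gene in CPM (log axis) by library, with filled symbols for Epcam-positive and open symbols for Epcam-negative cells and bars for the exact 95% Poisson interval. Tbata falls from 61.0 CPM in control Epcam-positive cells to 0.907 CPM in the Foxn11089/1089 library, Foxn1 is highest there at 142 CPM, and only Cd83 has a higher level in Epcam-negative than in Epcam-positive cells of that library.

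By the size of the ratio alone, 6 of the 8 genes were at least 2-fold lower in the Foxn11089/1089 library and 0 at least 2-fold higher. Of all 15438 genes, 7.94% were at least 2-fold lower and 19.1% at least 2-fold higher. In the library labelled Tbx1neo2/neo2 only Psmb11 of the 8 was at least 2-fold lower (log2 ratio -1.15) and 0 were higher, against 3.70% and 18.4% of 14681 genes. Ppp1r27 came next there, at a log2 ratio of -0.92. These values chose the genes in part and are given as a description.

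The scale mattered for the small differences. The median log2 ratio over all genes was 0.30 in the Foxn11089/1089 library and 0.42 in the library labelled Tbx1neo2/neo2, so scaling by the median gene lowers every ratio by that much. Relative to the median gene, Foxn1 was higher by 0.56 on the log2 scale and Slc46a2 lower, at -0.90, in the Foxn11089/1089 library, and the 6 other genes ranged from -6.37 to -1.68. In the library labelled Tbx1neo2/neo2 the log2 ratios of Foxn1 (0.17), Prss16 (0.25) and Cd83 (0.13) turned to -0.26, -0.17 and -0.29, and Psmb11 (-1.58) and Ppp1r27 (-1.34) both came to at least 2-fold lower. The split of all genes moved with it, from 1226 lower and 2949 higher to 1843 and 1965 in the Foxn11089/1089 library, and from 543 and 2694 to 1430 and 1165 in the library labelled Tbx1neo2/neo2.

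**Figure D2:**
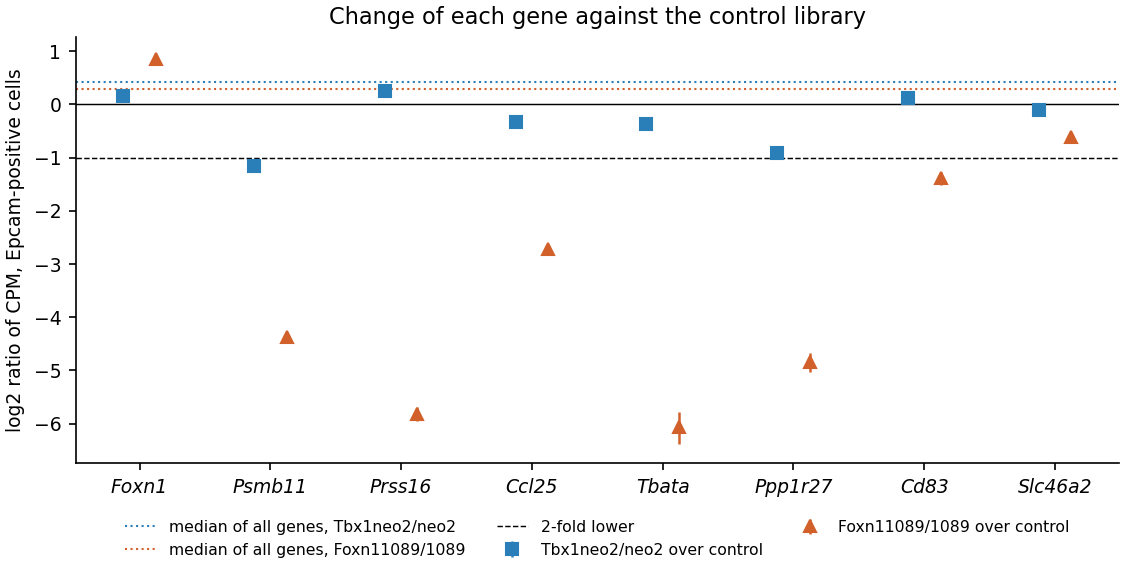
Log2 ratio of CPM over the control library in Epcam-positive cells, with bars for the exact 95% interval, a dashed line at 2-fold lower and dotted lines at the median of all genes. The 6 targets from Psmb11 to Cd83 lie below the dashed line in the Foxn11089/1089 library, and in the library labelled Tbx1neo2/neo2 only Psmb11 does, at -1.15.

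The Epcam gate took in cells of neighbouring organs, which differed between the libraries. The 4 parathyroid genes (Gcm2, Pth, Casr and Chga) summed to 877, 0.804 and 7570 CPM in Epcam-positive cells, and Gcm2, the factor that defines the parathyroid, had 0 UMIs in the library labelled Tbx1neo2/neo2. The 5 thyroid genes (Tg, Nkx2-1, Foxe1, Pax8 and Hhex) summed to 5.22, 245 and 6.42 CPM. Leaving out the 37, 177 and 679 Epcam-positive cells with at least 2 UMIs of these genes, Pth and Hhex not counted, brought Psmb11 to a log2 ratio of -0.88 and Ppp1r27 to -0.64 in the library labelled Tbx1neo2/neo2, so that 0 of the 8 were 2-fold lower there. Prss16 was then at 0.53 and Foxn1 at 0.45. In the Foxn11089/1089 library the same step kept the 6 lower genes past 2-fold (log2 ratios from -5.87 for Tbata to -1.26 for Cd83) and brought Foxn1 to 1.03, past 2-fold higher.

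Cells at the edge of the gate differed too. Control cells with exactly 2 Epcam UMIs, just inside it, had 51.1 CPM of Foxn1 and 261 CPM of Psmb11, and those with 1 Epcam UMI, just outside, had 20.7 and 87.3 CPM. In the library labelled Tbx1neo2/neo2 the cells just inside had 1.957 CPM of Foxn1 and 4.89 CPM of Psmb11, near the 1.98 and 2.55 CPM just outside. The levels were 26.1 and 2.68 CPM inside and 5.84 and 0.531 CPM outside in the Foxn11089/1089 library. The same cut thus passed through cells rich in these genes in the control and not in the deeper library labelled Tbx1neo2/neo2.

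Within each library the targets were higher in cells where Foxn1 was found. In the 636 Foxn1-positive control cells, against 1426 Foxn1-negative ones, the ratio of the thinned level ran from 1.48 for Prss16 to 2.02 for Ppp1r27. In the library labelled Tbx1neo2/neo2 (292 against 638 cells) it ran from 2.07 for Tbata to 3.57 for Psmb11. In the Foxn11089/1089 library (1775 against 2275 cells) it ran from 1.59 for Prss16 to 4.46 for Psmb11 (3.30 to 6.12), and the ratio of Tbata had an interval that included 1 (0.903 to 10.4, 11 against 5 UMIs). At least 2 times the level was reached by 1 of the 7 targets in the control, 7 of 7 in the library labelled Tbx1neo2/neo2 and 6 of 7 in the Foxn11089/1089 library, against 0.760%, 3.86% and 1.17% of all genes. The shares of all genes cover only genes with at least 30 UMIs. Tbata, with 11 and 5 UMIs, is below that minimum but is among the 6 of the Foxn11089/1089 library. In the control Ccl25 was at 1.98 times, so the count of 1 rests on Ppp1r27 at the edge of the rule.

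General epithelial genes differed between Foxn1-positive and Foxn1-negative cells as well. Krt18 was 1.73, 2.91 and 1.31 times as high in Foxn1-positive cells, and Krt8 1.54, 2.71 and 1.49 times. Cldn7 was lower, at 0.693, 0.403 and 0.597 times. The larger thyroid share of the library labelled Tbx1neo2/neo2 stands beside its larger ratios. The parathyroid sum of 7570 CPM in the Foxn11089/1089 library stands beside target ratios there of up to 4.46. The part of these organ cells in the ratios was not tested.

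In the Foxn11089/1089 library the levels of Ccl25, Psmb11, Ppp1r27, Slc46a2 and Cd83 were higher in cells with more Foxn1 UMIs, and those of Slc46a2 and Cd83 came within the range of the control. Ccl25 had 43.7, 135, 210 and 300 CPM in cells with 0, 1, 2 and at least 3 Foxn1 UMIs of 5000. Psmb11 had 4.92, 15.7, 27.9 and 33.2 CPM in these cells, with overlapping intervals in the last 2 groups, and Slc46a2 had 55.7, 121, 145 and 197 CPM. Ccl25 in the 313 cells with at least 3 Foxn1 UMIs (274 to 329 CPM) was below its level in control cells with 0 Foxn1 UMIs, at 521 CPM. Slc46a2 in control cells with at least 3 Foxn1 UMIs, of which there were 35, had 171 CPM (116 to 245), an interval that overlapped. Ppp1r27 had 1.67, 4.58, 6.11 and 10.9 CPM in the Foxn11089/1089 library, from 19, 23, 14 and 17 UMIs. Cd83 had 7.91, 15.3, 15.7 and 23.0 CPM there, with intervals that overlapped from 1 Foxn1 UMI on, and its last interval (16.1 to 31.8) overlapped that of control cells with 0 Foxn1 UMIs (22.1 to 29.7). Prss16 had 3.34, 4.38, 4.80 and 8.95 CPM, from 38, 22, 11 and 14 UMIs, whose intervals overlapped between neighbours. Parathyroid cells of this library were kept in these groups, and their part in the levels was not tested.

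**Figure D3:**
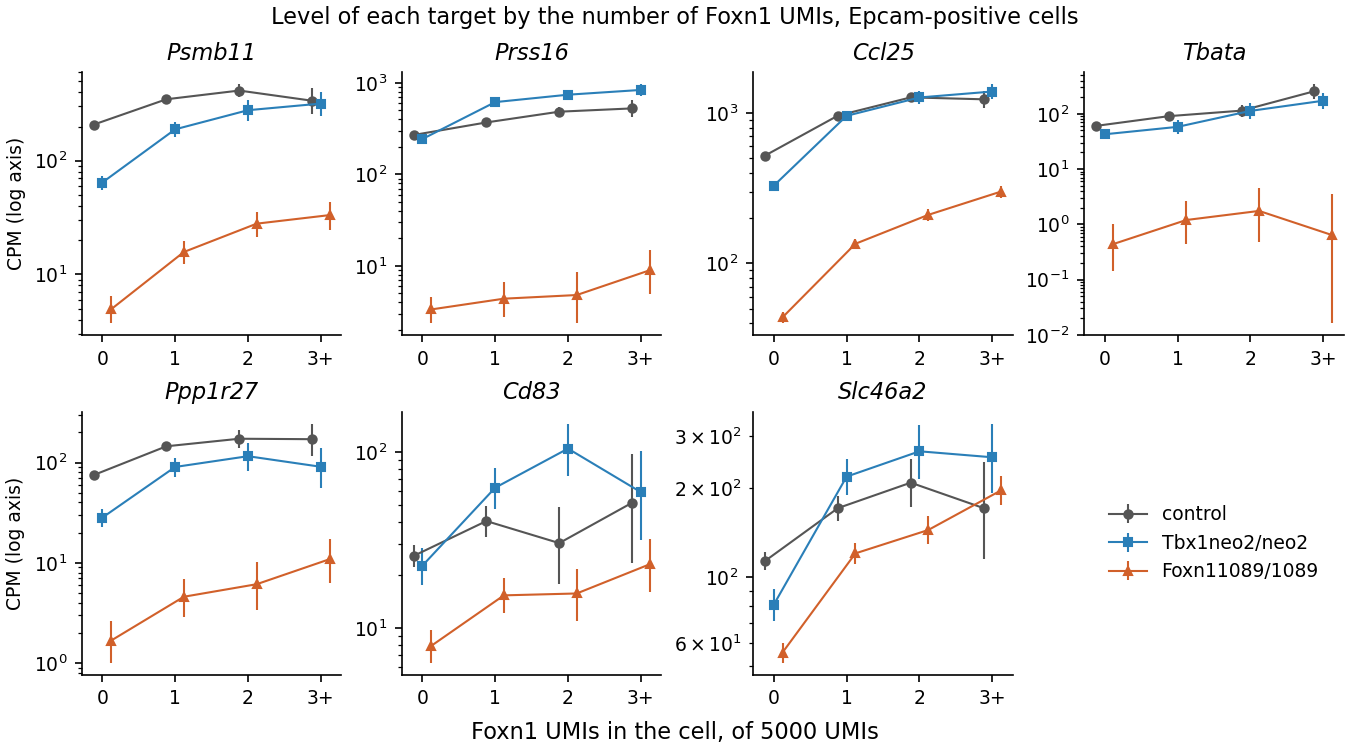
Level of each target (CPM, log axis) in Epcam-positive cells with 0, 1, 2 or at least 3 Foxn1 UMIs after thinning to 5000 UMIs, by library, with exact 95% Poisson intervals. Ccl25 climbs from 43.7 to 300 CPM in the Foxn11089/1089 library, under the 521 CPM of control cells with 0 Foxn1 UMIs, while Slc46a2 meets the control.

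Foxn1-positive cells held fewer of the targets in the Foxn11089/1089 library. The mean number of the 7 targets with at least 1 UMI was 3.13 ± 1.70 (SD over 636 cells) in the control, 3.53 ± 1.62 (292 cells) in the library labelled Tbx1neo2/neo2 and 0.911 ± 0.997 (1775 cells) in the Foxn11089/1089 library. In Foxn1-negative Epcam-positive cells it was 2.12, 1.40 and 0.395. At least 3 targets were found in 64.3% (60.4% to 68.0%), 71.6% (66.0% to 76.7%) and 8.06% (6.83% to 9.42%) of Foxn1-positive cells. The first 2 intervals overlapped and the third was lower, by counting error alone. No target was found in 7.55%, 2.74% and 42.1%. The highest number in the Foxn11089/1089 library was 5 targets, in 3 cells.

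**Figure D4:**
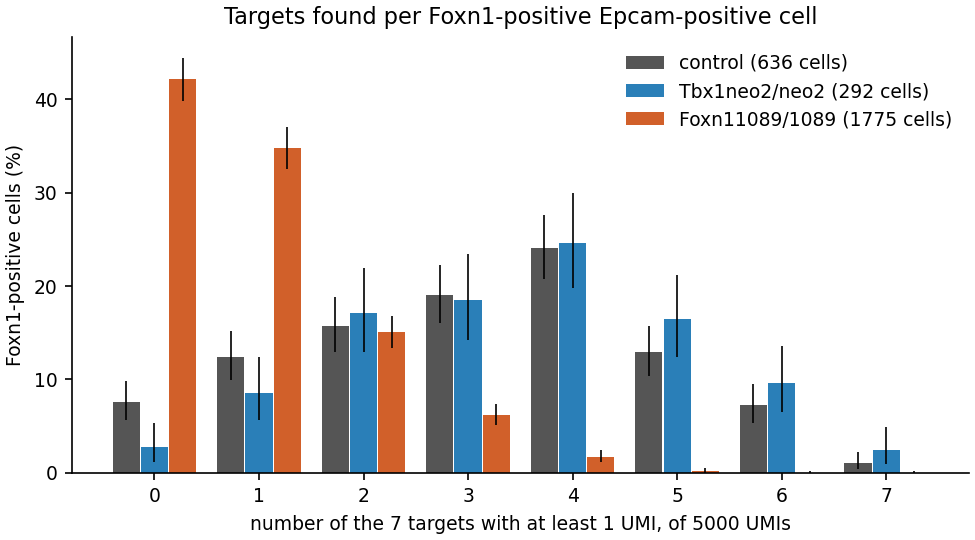
Share of Foxn1-positive Epcam-positive cells (y axis, %) by the number of the 7 targets with at least 1 UMI after thinning to 5000 UMIs, with exact 95% binomial intervals. The control and Tbx1neo2/neo2 bars peak at 4 targets (24.1% and 24.7%) and the Foxn11089/1089 bars at 0 (42.1%).

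Among cells with Foxn1 RNA alone, the order of the targets was nearly that of all Epcam-positive cells. In Foxn1-positive cells of the Foxn11089/1089 library, Tbata was 84.0-fold lower than in those of the control (46.3 to 170, 11 against 331 UMIs), Prss16 75.2-fold, Ppp1r27 25.0-fold and Psmb11 16.3-fold. Ccl25 was 5.62-fold lower, Cd83 2.34-fold and Slc46a2 1.27-fold (1.15 to 1.40). With exactly 1 Foxn1 UMI in each cell, the folds were 76.0, 84.3, 31.8, 22.1, 7.13, 2.64 and 1.42 in the same order. That step matches the cells on the count found and not on their Foxn1 level, which 1 UMI does not fix. In Foxn1-positive cells of the library labelled Tbx1neo2/neo2, Prss16 was 1.70 times, Cd83 1.83 times and Slc46a2 1.32 times the control, Psmb11 0.640 times and Ppp1r27 0.636 times. Ccl25 at 1.06 times (1.002 to 1.13) and Tbata at 0.849 times (0.687 to 1.04) were near the control. These comparisons use the same cells and genes as the choice of the genes, and are no separate evidence.

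Set against Foxn1 itself, the control held 7.07 Ccl25 UMIs for each Foxn1 UMI in Epcam-positive cells, the library labelled Tbx1neo2/neo2 5 and the Foxn11089/1089 library 0.598. For Slc46a2 these values were 1.51, 1.25 and 0.551, and for Prss16 3.43, 3.64 and 0.0336. Prss16 was the 1 target with a value for the library labelled Tbx1neo2/neo2 above that of the control.

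The targets were found together in the control. Of control cells with Tbata, 91.6% held Ccl25, 80.5% Prss16, 79.7% Psmb11 and 42.9% Ppp1r27 after thinning. These genes were found in 56.0%, 57.5%, 47.2% and 14.9% of all control Epcam-positive cells. In the library labelled Tbx1neo2/neo2 the shares in cells with Tbata were 88.5%, 89.4%, 68.1% and 43.4%. Those in all its Epcam-positive cells were 47.3%, 53.2%, 31.2% and 11.3%. Few cells held Tbata in the Foxn11089/1089 library. Of the 41 with 1 to 4 Tbata UMIs before thinning, 33 (80.5%) held Ccl25, 38 (92.7%) Slc46a2, 29 (70.7%) Psmb11 and 8 (19.5%) Prss16. Of the cells with 0 Tbata UMIs in that library, 41.4%, 55.7%, 12.9% and 10.2% held these genes. The 3 with at least 5 Tbata UMIs together held 190 Ccl25 and 33 Foxn1 UMIs. Control cells with at least 5 Tbata UMIs numbered 115, of which 112 held Prss16 and 110 Ccl25. The Foxn11089/1089 cells were picked for Tbata, and 1 of the 3 and 4 of the 41 were scored as likely doublets.

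Outside the epithelium most of the genes were near 0, and Cd83 and Ccl25 were not. Cells with UMIs of Pdgfra, a receptor that marks mesenchyme, and 0 of Epcam numbered 965, 1435 and 2398. In them Cd83 had 30.5 CPM (27.1 to 34.2), 28.5 CPM (26.8 to 30.3) and 41.3 CPM (39.2 to 43.4), as high as in control Epcam-positive cells. Ptprc-positive cells with at least 2 macrophage genes had 45.7, 54.3 and 57.2 CPM of Cd83, from 17, 95 and 66 UMIs in 29, 45 and 52 cells. Red blood cells (Alas2-positive), which should lack the gene, had 0.883, 0.759 and 1.45 CPM. Cd83 was found in a larger share of Epcam-negative (9.79%) than of Epcam-positive cells (5.01%) in the Foxn11089/1089 library, and was the 1 gene of the 8 with that order in any library.

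Ccl25 in Pdgfra-positive cells did not follow its fall in the epithelium, and the same held in Ptprc-positive and Cdh5-positive (endothelial) cells. In Pdgfra-positive cells it had 17.7 CPM (15.1 to 20.6) in the control and 20.05 CPM (18.6 to 21.5) in the library labelled Tbx1neo2/neo2. In the Foxn11089/1089 library these cells had 23.2 CPM (21.7 to 24.9). Ptprc-positive cells had 12.97, 16.4 and 13.4 CPM in the same order. Cdh5-positive cells had 9.90, 20.6 and 9.82 CPM, from 7, 52 and 22 UMIs. Red blood cells had 3.24, 1.82 and 1.41 CPM. The part in these levels of Elavl1, which overlaps Ccl25 on the opposite strand, was not tested. For each Prss16 UMI there were 13.2, 10.8 and 91.0 Ccl25 UMIs in Pdgfra-positive cells (13, 70 and 9 Prss16 UMIs), and 2.06, 1.37 and 17.8 in Epcam-positive cells. Prss16 itself had 3.35, 3.33 and 2.52 CPM in Ptprc-positive cells, from 54, 31 and 18 UMIs, with overlapping intervals. Its Epcam-positive level was 56.6-fold lower in the Foxn11089/1089 library than in the control. Control Epcam-negative cells as a whole had 10.4 CPM of Psmb11, and the Pdgfra-positive and red blood cells among them had 1.66 and 1.47 CPM.

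**Figure D5:**
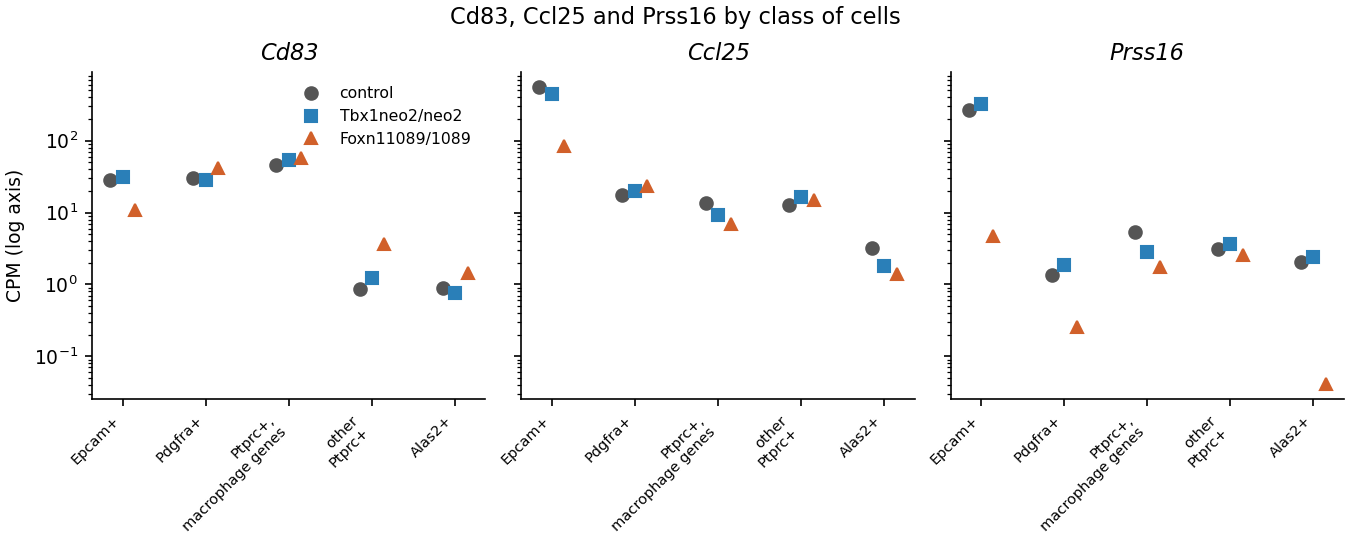
Level (CPM, log axis) of Cd83, Ccl25 and Prss16 in Epcam-positive cells and in Epcam-negative cells with UMIs of Pdgfra, of Ptprc with or without macrophage genes, or of Alas2, with 1 point per library. Cd83 stays between 28.5 and 41.3 CPM in Pdgfra-positive cells of all 3 libraries and Ccl25 between 17.7 and 23.2 CPM.

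The genes whose pattern over cells was most like that of Foxn1 differed between libraries. Pearson's correlation of log(1 + UMIs) was taken over thinned Epcam-positive cells (2062, 930 and 4050), which share a library, a depth and a gate, for genes found in at least 5% of cells (7232, 8301 and 7836 genes). In the control Ccl25 ranked first (r = 0.26), Psmb11 5, Prss16 9, Slc46a2 24 and Ppp1r27 35, while Tbata ranked 74 and Cd83 276. Ccl25, Psmb11, Prss16, Slc46a2, Ppp1r27, Tbata and Cd83 ranked 5, 8, 6, 14, 117, 134 and 110 in the library labelled Tbx1neo2/neo2. In the Foxn11089/1089 library Slc46a2 ranked 9 (r = 0.27), Ccl25 12, Psmb11 74 and Cd83 352, and Prss16, Tbata and Ppp1r27 were in too few cells to be ranked.

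Other genes near Foxn1 changed with the library as well. The 10 highest in the control beside the targets were Krt18, Krt8, Cxcl12, Ctsl, Pax1, Pltp, Fn1, Csrp2, Stmn2 and Bnip3l. Pax1, a factor of the pharyngeal pouch, ranked 7, 3 and 5 in the 3 libraries, and Ctsl, a protease that cuts MHC class II chaperones, ranked 6, 2 and 10. Cxcl12, a chemokine, ranked 4, 69 and 7175, with r = -0.045 in the Foxn11089/1089 library. The 5 highest there were Stmn2, Nefm, Il7, Pdlim1 and Pax1, and those in the library labelled Tbx1neo2/neo2, beside the targets, were Krt8, Ctsl, Pax1, Krt18 and Stmn2. Of the 50 highest genes, the control shared 27 with the library labelled Tbx1neo2/neo2 and 17 with the Foxn11089/1089 library, and these 2 shared 22 with each other, or 54%, 34% and 44% of each list.

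Among 9 other genes linked to Foxn1 in TECs, 4 were at least 2-fold lower in the Foxn11089/1089 library and 0 higher. Of all genes, 7.94% were lower and 19.1% higher. The median log2 ratio was -0.81, against 0.30 over all genes. The 4 were the Notch ligand Dll4 (15.5 CPM in the control and 6.54 CPM), Cxcl12 (129 and 18.0 CPM), the endocytic receptor Ly75 (31.9 and 3.33 CPM) and the costimulatory receptor Cd40 (6.77 and 0.598 CPM). The cytokine Il7, at 205 and 243 CPM, and the stem cell factor Kitl, at 88.7 and 62.4 CPM, stayed within 2-fold, with Ctsl, Fgfr2 and E2f1. Of these 9 genes 0 passed 2-fold in either direction in the library labelled Tbx1neo2/neo2, with a median of 0.17 against 0.42. Of all genes there, 3.70% were lower and 18.4% higher.

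Of the 5 MHC class II genes, which work with Cd83 and Prss16, 4 were at least 2-fold lower in the Foxn11089/1089 library (median -3.30), against 7.94% of all genes and a median of 0.30. The invariant chain Cd74 went from 476 to 26.5 CPM and H2-Aa from 107 to 10.8 CPM, while their activator Ciita had only 33 and 50 UMIs. Cd74, at 180 CPM, was the 1 of 5 past 2-fold lower in the library labelled Tbx1neo2/neo2 (median -0.77), against 3.70% of all genes and a median of 0.42. The 3 macrophage genes in Epcam-positive cells summed to 4.81, 2.70 and 20.3 CPM and the 4 dendritic genes to 1.63, 2.91 and 2.52 CPM, each with all members found, and their part in these levels was not tested.

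Several factors of the pharyngeal pouch that precede or accompany Foxn1 were higher in the Foxn11089/1089 library. Of 11, 7 were at least 2-fold higher and 0 lower (median 1.14), against 19.1% of all genes higher and a median of 0.30. Tbx1 had the largest ratio of the 11, at 0.816 and 7.35 CPM from 30 and 786 UMIs. Gata3 had 38.7 and 111 CPM and Eya1 23.8 and 70.8 CPM, whereas Pax1, at 622 and 520 CPM, and Pax9, at 144 and 208 CPM, stayed within 2-fold. Gata3 and Eya1 also act in the parathyroid, whose genes were higher in this library by the sums given above, and that part was not tested. Tbx1 and Trp63 were the 2 of 11 past 2-fold higher in the library labelled Tbx1neo2/neo2 (median 0.53), a share near the 18.4% of all genes there, whose median was 0.42.

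General and medullary epithelial genes were mixed. Of 8 general epithelial genes 1 was at least 2-fold lower in the Foxn11089/1089 library, Krt18 at 2065 and 342 CPM, and 0 higher (median 0.28). Of all genes 7.94% were lower and 19.1% higher there, with a median of 0.30. In the library labelled Tbx1neo2/neo2 Krt8 and Cdh1 were 2-fold higher and 0 lower (median 0.33). That is near the 18.4% of all genes there, whose median was 0.42. Of 7 medulla-associated genes with enough UMIs, 4 were lower and 2 higher in the Foxn11089/1089 library (median -1.38), against 7.94% and 19.1% of all genes. Among them were Krt17 at 389 and 19.9 CPM and the chemokine Ccl21a at 269 and 689 CPM. The library labelled Tbx1neo2/neo2 had 1 lower, Ccl21a at 71.2 CPM, and 1 higher, Cldn3 (median -0.51), against 3.70% and 18.4% of all genes. The order of Ccl21a over the 3 libraries was that of the parathyroid sums (877, 0.804 and 7570 CPM). The part of parathyroid cells in its level was not tested.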

How the data were processed

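Single-cell RNA-seq of E13 to E13.5 thymic lobes was available as 1 droplet library per genotype. For each, the authors deposited raw counts of UMIs per gene and barcode, without normalization, made with Cell Ranger 3.0.0 on mm10 according to the submitters' processing notes, which also name Seurat. No cluster labels were used here. Gene positions are from GENCODE M21 on GRCm38.

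UMIs were summed per gate and library and divided by all UMIs of those cells (CPM). Likely doublets by Scrublet in scanpy 1.11.5, the highest scores at 0.8% per 1000 barcodes (329, 265 and 1239), stayed in. Shares, co-detection and correlations used cells thinned to 5000 UMIs without replacement. Medians over genes used a pseudocount of 0.5 UMI in each sum. The interval and fold rules and the correlation ranking were tested on simulated data. The simulated sums for the intervals and folds were Poisson counts, as the intervals assume. They had no clustering of UMIs in cells and no differences between replicate libraries. They check the calculation and cannot show that the intervals are wide enough for these data. Replicates were absent, so no test between genotypes was run.

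The genes and lists were chosen with earlier results of these data known. Text names the 8 genes, the genes of the fixed lists, and the genes most correlated with Foxn1 (10 in the control, 5 in each other library). The alternatives changed the gate (1 or 5 Epcam UMIs, or Cdh1), the cell filters, doublets, cells of other lineages or organs, the scaling, the weight of cells, the gene minimum, the thinning depth and the Foxn1 cut. Python 3.11.15 with numpy 2.4.6, scipy 1.17.1 and pandas 2.3.3 was used.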

Additional observations from a re-analysis of the deposited data

How the results depend on the processing

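The count of 6 of 8 genes at least 2-fold lower in the Foxn11089/1089 library was the same under all 13 alternatives that bear on it, and the single-gene values there ranged from -6.38 to -5.40 (Tbata), -6.12 to -5.52 (Prss16), -5.14 to -4.30 (Ppp1r27), -4.67 to -3.91 (Psmb11), -3.01 to -2.22 (Ccl25), -1.68 to -1.12 (Cd83) and -0.90 to -0.24 (Slc46a2) on the log2 scale. Foxn1 ranged from 0.56 to 1.12 and made 1 gene at least 2-fold higher with Cdh1 in place of Epcam, without cells with any parathyroid or thyroid UMI, and without those with at least 2 (Pth not counted), an alternative chosen, with the second draw of the thinning, after seeing the data. In the library labelled Tbx1neo2/neo2 the count of 1 lower gene became 2 with at least 1 Epcam UMI and with median-of-ratios scaling, and 0 with at least 5 Epcam UMIs, with Cdh1, and without cells with other-lineage UMIs or either set of organ cells; Psmb11 there ranged from -1.58 to -0.55, and the 6 genes other than Psmb11 and Ppp1r27 took both signs over the alternatives. Of all genes, 2222 (Foxn11089/1089) and 1224 (Tbx1neo2/neo2) were lower with a minimum of 1 UMI in each library, 361 were lower in the latter with a minimum of 100, and 1490 were higher in the former without any organ UMI; median-of-ratios scaling gave 1843 lower and 1965 higher, and 1430 lower and 1165 higher.

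The number of targets at least 2 times higher in control Foxn1-positive cells (1) became 4 with 1 Epcam UMI or 10000 UMIs per cell, 3 with 2 Foxn1 UMIs, 2 without doublets, and 0 with 5 Epcam UMIs, without other-lineage cells, at 2000 UMIs and in the second draw. In the Foxn11089/1089 library it became 2 at 2000 UMIs. The mean number of targets per Foxn1-positive cell was 2.09, 2.38 and 0.459 at 2000 UMIs, 3.82, 4.05 and 1.28 at 10000 UMIs, and 3.36, 3.87 and 1.07 with 2 Foxn1 UMIs, in the order control, Tbx1neo2/neo2 and Foxn11089/1089, and 2.82 with 5 Epcam UMIs and 2.66 with Cdh1 in the control. Of the 50 genes most like Foxn1, targets numbered 3 in place of 5 with Cdh1 in the control and 1 in place of 2 at 2000 UMIs in the Foxn11089/1089 library. No paired analysis was possible because each genotype had 1 library. No replicate stands behind a ratio, and the intervals cover counting error only.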
